A study of Mus musculus with 2 samples.

Results

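Amino acid transporters of 6 solute carrier families were followed in chronic myeloid leukemia stem cells (LSCs) with and without the adaptor protein STAP-1. Every gene whose symbol begins with Slc1a, Slc3a, Slc7a, Slc36a, Slc38a or Slc43a and a number was taken, which gave 43 of the 23284 genes listed in both libraries. Of these genes, 42 encode transporters or their partner chains. The remaining one, Slc7a6os, carries the name of its neighbour Slc7a6 only because it lies on the opposite strand, and its product is not a transporter.

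Cells cannot make the essential amino acids and import them through membrane carriers, many of which work as exchangers that trade one amino acid for another. Light chains of the SLC7 family reach the cell surface only when they are joined by a disulfide bond to a heavy chain of the SLC3 family, mainly Slc3a2 (CD98hc, 4F2hc). The pair of Slc3a2 with Slc7a5 (LAT1) imports leucine and other large neutral amino acids, commonly in exchange for glutamine that carriers of the SLC1 and SLC38 families have brought in, and leucine and arginine are sensed at the lysosome upstream of mTORC1.

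Both libraries came from a mouse model of CML in which a retrovirus carrying human BCR-ABL and GFP (pMSCV-ires-GFP) was introduced into bone marrow LSK (lineage-negative, Sca-1-positive, c-Kit-high) cells. The WT library held cells of wild-type C57BL/6J donors and the STAP-1 KO library cells of C57BL/6J donors from a STAP-1 KO line made by gene targeting, in which the disruption is not limited to one cell type. Donor cells (Ly5.2) were given to lethally irradiated C57BL/6SJL (Ly5.1) recipients together with marrow of C57BL/6SJL mice, the mice were 8 to 14 weeks old, and GFP+ CD45.2+ LSK cells were sorted from recipient marrow at day 11 after transplantation. BCR-ABL, irradiation and support marrow were thus common to both genotypes, and the support marrow did not come from STAP-1 KO mice in either. How many mice contributed to a library is not given in the sources used here.

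There was 1 library per genotype, so no difference below has a replicate check, a standard deviation or a p-value. Expression was given as FPKM, fragments scaled for transcript length and for the mapped fragments of a library, which allows genes to be set side by side within a library. Stap1, the disrupted gene, was at 61.95 FPKM in WT LSCs against 0.309 FPKM in STAP-1 KO LSCs. Depth was estimated from the step between low values at about 7500000 reads for WT and 10470000 reads for STAP-1 KO, and a transcript of 2000 bases with 3 reads would stand at 0.223 and 0.160 FPKM, respectively. Intervals of fold differences are 95% intervals from these estimated reads, and cover at most the counting error of the 2 libraries. They treat reads as independent, which reads of amplified cDNA are not, so they are too narrow. Since the housekeeping gene Gapdh was listed at only 0.391 and 1.03 FPKM, a value at or near 0 is described as listed there and not as absence of the transcript.

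The libraries also differed in other ways that touch the transporters. Of 4 genes that mark the sorted or primitive cells, Kit was at 468 FPKM in WT and 30.1 FPKM in STAP-1 KO, Ly6a (Sca-1) at 285 and 106 FPKM, Ptprc (CD45) at 107 and 38.2 FPKM, and Cd34 at 281 and 194 FPKM. Of 11 mast cell and basophil markers with a mean FPKM of 1 or more, 10 were at least 2-fold lower in STAP-1 KO (90.9%). Over all genes with that mean, 22.2% were lower and 11.5% higher. The summed level of these markers was 51871 FPKM in WT and 5332 FPKM in STAP-1 KO, with none of the list at 0 in both libraries. Among 9 granulocyte progenitor markers, 7 were at least 2-fold higher (77.8%) and 1 lower (11.1%). Their sum was 582 FPKM in WT and 4683 FPKM in STAP-1 KO. Monocyte and macrophage markers had 4 higher (57.1%) and 2 lower (28.6%) of 7 (199 and 240 FPKM summed). Erythroid markers had 1 higher (12.5%) and 3 lower (37.5%) of 8 (1270 and 694 FPKM). They include Hba-a1, at 34.8 and 380 FPKM, and Hba-a2, at 773 and 15.9 FPKM, which differed in opposite directions. Megakaryocyte markers had 1 higher (14.3%) and 3 lower (42.9%) of 7 (218 and 137 FPKM). Lymphoid markers had 3 higher (75%) and 1 lower (25%) of 4 (19.8 and 46.1 FPKM), with Ebf1 at 0 in both. The higher shares of erythroid and megakaryocyte markers and the lower shares of monocyte and lymphoid markers were near those of all genes. Transcripts of greater length tended to be lower in STAP-1 KO (Spearman's rho = -0.366 across 10863 genes of the same 2 libraries, given as a description). Log2 ratios are therefore given a second time after the running median over transcript length and GC content was subtracted, and are called corrected. The part of these cell types in any transporter difference was not tested.

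Amino acid carriers past 2-fold were mostly lower in STAP-1 KO LSCs, and most of the summed difference lay in Slc3a2 and the light chains it carries. Of the 43 genes, 21 had a mean FPKM of 1 or more over both libraries, 22 were below it, and 14 of those were listed at 0 in both. Of the 21 expressed at this level, 8 were at least 2-fold lower in STAP-1 KO (38.1%) where 22.2% of all 10974 genes with that mean were lower. Slc7a3 was the only gene of the 21 at least 2-fold higher (4.76%), against 11.5% of all genes, and 12 lay within 2-fold. In a sorted population, fewer cells of a type that holds a transcript and less of the transcript per cell cannot be told apart.

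The summed level of the 42 transporter genes was 1297 FPKM in WT and 627.2 FPKM in STAP-1 KO, a 2.07-fold lower total. Slc7a8 alone made up 42.1% of the net difference, Slc3a2 30.5% and Slc7a5 15.1%. Without Slc7a8 the sums were 999 and 611 FPKM, a 1.63-fold difference. The median log2 ratio of the 21 genes was -0.09, close to the -0.04 of all genes, and it was -0.24 for the 20 transporters among them when Slc7a6os was left out. After correction it was -0.22 for the 21 genes, against 0.00 for all genes. The log2 ratios here and below are of STAP-1 KO over WT with 0.1 FPKM added to each value, which understates differences of genes near 0.

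**Figure D1:**
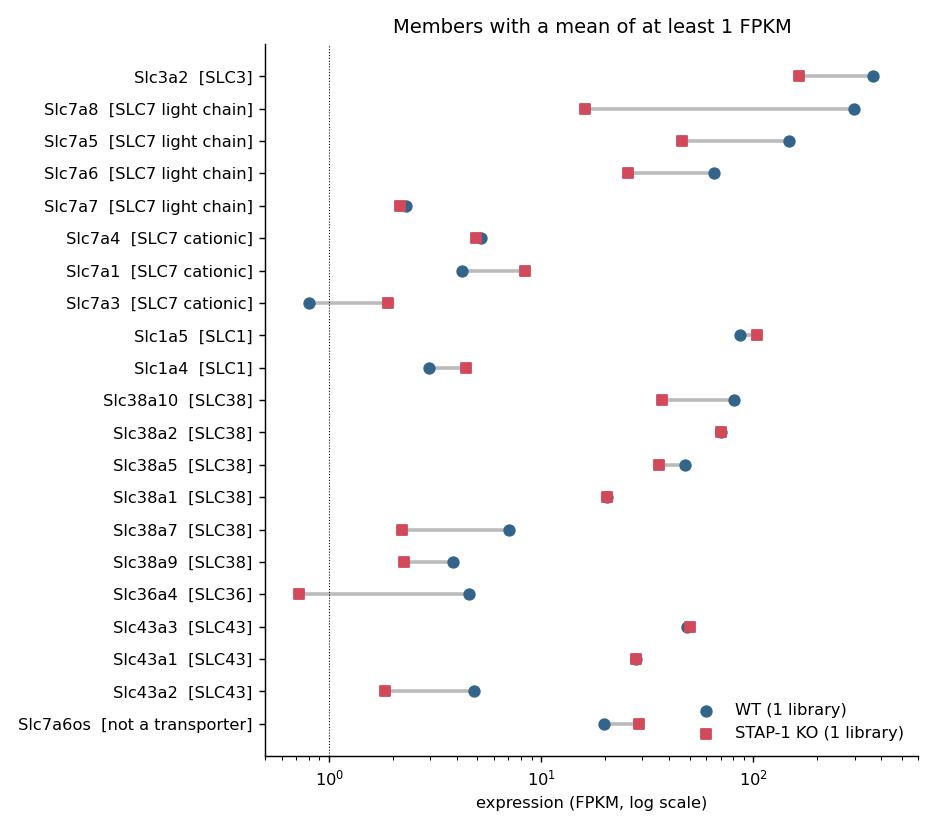
Expression in FPKM (log axis) of the 21 genes with a mean FPKM of 1 or more, grouped by subfamily, with circles for WT, squares for STAP-1 KO (1 library each, no error bars) and a grey line joining them. The widest gaps are those of Slc7a8 (298 to 16.1 FPKM) and Slc36a4 (4.55 to 0.718 FPKM), while Slc38a1, Slc38a2, Slc43a1 and Slc43a3 have nearly the same value in both.

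Slc3a2, the heavy chain, was the highest of all the transporter genes in both libraries. It was at 367.6 FPKM in WT and 163.3 FPKM in STAP-1 KO, 2.25-fold lower (95% interval 2.17 to 2.34), with a log2 ratio of -1.17 and a corrected one of -1.14. Its place among all genes ordered by level moved from 219 in WT to 701 in STAP-1 KO. The gene lies at chr19:8706882-8723369 on the minus strand (GRCm38). Slc3a1 (rBAT), the other heavy chain, which serves the cystine carrier Slc7a9 in kidney and gut, was listed at 0 in WT and 0.051 FPKM in STAP-1 KO, and Slc7a9 at 0 in both.

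Of the 4 light chains with a mean FPKM of 1 or more, all partners of Slc3a2, 3 were at least 2-fold lower in STAP-1 KO (75%, against 22.2% of all genes), and their median log2 ratio was -1.51. Slc7a8 (LAT2), an exchanger of neutral amino acids of both large and small size, was at 298.2 FPKM in WT and 16.1 FPKM in STAP-1 KO. That is an 18.6-fold lower level (17.2 to 20.2), with a log2 ratio of -4.21 and a corrected one of -3.92. Only 1.04% of the 10974 genes had a lower log2 ratio, and the gene went from place 276 to place 5170 by level. Slc7a8 lies at chr14:54722209-54781946 on the minus strand.

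Slc7a5 (LAT1), the main importer of leucine and other large neutral amino acids in dividing cells, was at 146.9 FPKM in WT and 46.0 FPKM in STAP-1 KO, 3.19-fold lower (3.01 to 3.39). Its log2 ratio was -1.67 as deposited and -1.34 corrected, and it lies at chr8:121881150-121907694 on the minus strand. Slc7a6 (y+LAT2), which exchanges cationic amino acids such as arginine for neutral ones with sodium, was at 64.9 FPKM in WT and 25.5 FPKM in STAP-1 KO, 2.54-fold lower (2.35 to 2.755), with log2 ratios of -1.34 and, corrected, -1.28. It lies at chr8:106168857-106198706 on the plus strand. All 3 light chains thus had a lower level than Slc3a2 in either library, and Slc7a8 was above Slc7a5 and Slc7a6 in WT and below both in STAP-1 KO.

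None of the light chains of low level was past 2-fold with a mean FPKM of 1 or more. Slc7a7 (y+LAT1), the close relative of Slc7a6 that lies 304 kb from Slc7a8 on chromosome 14, was at 2.29 FPKM in WT and 2.15 FPKM in STAP-1 KO, with a log2 ratio of -0.09 and a fold interval that includes no difference (0.673 to 1.69, WT over STAP-1 KO). Slc7a11 (xCT), which imports cystine for glutathione in exchange for glutamate, was below the floor at 0.384 FPKM in WT and 0.551 FPKM in STAP-1 KO, from about 26.0 and 52.0 reads. Slc7a10 was listed at 0 in both. Slc7a9, Slc7a12, Slc7a13 and Slc7a15, which do not pair with Slc3a2 or whose partner is not settled, were also listed at 0 in both.

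Set against the heavy chain, Slc7a5 differed less between the libraries than Slc7a8 did. For each unit of Slc3a2 FPKM there was 0.400 of Slc7a5 in WT and 0.282 in STAP-1 KO, a log2 difference of -0.50, which was -0.20 after correction. Slc7a6 stood at 0.176 per unit of Slc3a2 in WT and 0.156 in STAP-1 KO. The ratio of Slc7a8 to Slc3a2 was 0.811 in WT and 0.0983 in STAP-1 KO. These ratios do not depend on the scaling of the libraries, since both genes of a pair come from the same library, but they are ratios of transcripts and not of assembled carriers.

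The 6 light chains that pair with Slc3a2 summed to 512.7 FPKM in WT and 90.3 FPKM in STAP-1 KO, 5.68-fold lower, so that together they exceeded their heavy chain in WT (1.39 per unit) and were below it in STAP-1 KO (0.553 per unit). Without Slc7a8 the sum of the others per unit of Slc3a2 was 0.583 in WT and 0.455 in STAP-1 KO. Slc7a8 made up 58.2% of light-chain FPKM in WT and 17.8% in STAP-1 KO. Slc7a5 made up 28.7% and 51.0%, and Slc7a6 12.7% and 28.3%, so the leading light chain by level was Slc7a8 in WT and Slc7a5 in STAP-1 KO.

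**Figure D2:**
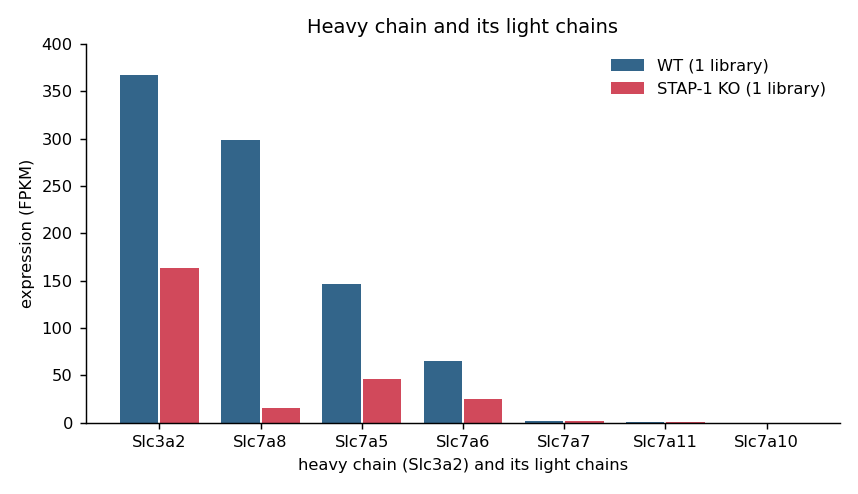
Bars from 0 give the FPKM of the heavy chain Slc3a2 and of the 6 light chains that pair with it in WT (blue) and STAP-1 KO (red) LSCs, 1 library each, so without error bars. Slc7a8 is the tallest light chain at 298 FPKM in WT and stands at 16.1 FPKM in STAP-1 KO, below Slc7a5 (46.0 FPKM) and Slc7a6 (25.5 FPKM), and Slc7a7, Slc7a11 and Slc7a10 are too low to see.

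Several genes of amino acid transport are known targets of ATF4, the transcription factor of the amino acid starvation response, which binds the amino acid response element. The letters TGATGNAA, a short form of this element, were searched on both strands in RefSeq promoter windows of GRCm38.p6 that reach from 250 bases before to 50 bases after a transcript start. Windows were given for 32 of the 43 genes (43 windows). The letters occurred in 3 genes, Slc1a4, Slc7a7 and Slc7a11 (4 of the 43 windows), and in 3.97% of all 32851 windows of the table. Of these 3, Slc1a4 and Slc7a7 were within 2-fold and Slc7a11 was below the floor. At so low a share of windows, the absence of the letters from those of the lower genes, such as Slc3a2 and Slc7a8, sets them apart from no other genes. Slc7a5 had no window in the table. Atf4 itself was at 114 FPKM in WT and 177 FPKM in STAP-1 KO. The letters TGATGNAA are shown in capitals, as read on either strand, in the stretches of Slc7a11 (chr3:50443644-50443713, minus strand, bases -100 to -31 from the start) and Slc1a4 (chr11:20332710-20332779, minus strand, bases -66 to +4). Beside them stand upstream stretches of the 2 most abundant lower genes, Slc7a8 (chr14:54781947-54782136, minus strand, bases -250 to -61) and Slc3a2 (chr19:8713898-8713960, minus strand, bases -63 to -1), which hold no capitals. All are written 5′ to 3′ on the strand of the gene.
Slc7a11: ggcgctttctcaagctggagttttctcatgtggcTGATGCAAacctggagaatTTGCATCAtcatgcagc
Slc1a4: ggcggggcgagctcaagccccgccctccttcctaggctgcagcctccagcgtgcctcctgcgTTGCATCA
Slc7a8: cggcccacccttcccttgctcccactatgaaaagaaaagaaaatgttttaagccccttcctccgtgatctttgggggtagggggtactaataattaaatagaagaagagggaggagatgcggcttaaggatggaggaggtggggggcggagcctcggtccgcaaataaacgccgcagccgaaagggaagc
Slc3a2: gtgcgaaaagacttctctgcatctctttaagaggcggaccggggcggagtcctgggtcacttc
Slc7a11 holds the letters once on each strand of the printed stretch and Slc1a4 once, ending at base +4.

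Of the other motifs searched, the E-box CACGTG, bound by MYC and by the TFE3 family, occurred in 7 of the 43 windows (1 each of Slc1a6, Slc1a7, Slc7a14, Slc36a1, Slc38a5, Slc38a7 and Slc43a1) and in 7.15% of all windows. Only 3 of these 7 genes had a mean FPKM of 1 or more, and nothing is read from the count. Myc itself was at 59.3 FPKM in WT and 169 FPKM in STAP-1 KO. The antioxidant response element in the form TGANNNNGC was in 24 of the 43 windows, of 20 genes, and in 41.3% of all windows. A match gives only the letters of a window and no binding was measured.

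The cationic carriers are the other branch of SLC7. Slc7a1 (CAT1), the usual importer of arginine and lysine, was at 4.25 FPKM in WT and 8.41 FPKM in STAP-1 KO, 1.98-fold higher (1.70 to 2.32). Its transcript of 7179 bases belongs to a length at which the median log2 ratio of genes was -0.91, and its own log2 ratio was 0.97 as deposited and 1.98 corrected. Slc7a3 (CAT3) was at 0.802 FPKM in WT and 1.90 FPKM in STAP-1 KO, 2.37-fold higher (1.35 to 4.66), but this came from about 15.3 and 50.5 reads, its corrected log2 ratio of 0.98 was within 2-fold, and it passed the floor of 1 FPKM only through the STAP-1 KO library.

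Slc7a4, which resembles the cationic carriers but has no settled transport activity, was at 5.21 FPKM in WT and 4.90 FPKM in STAP-1 KO. Slc7a2 (CAT2), an arginine importer of activated macrophages, was listed at 0.036 FPKM in WT and 0 in STAP-1 KO, and Slc7a14 at 0 in both. The summed level of the 5 cationic genes was 10.3 FPKM in WT and 15.2 FPKM in STAP-1 KO.

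Carriers of glutamine and other small neutral amino acids stood at nearly the same total in both libraries. Slc1a5 (ASCT2), a sodium-dependent exchanger of glutamine, was at 86.9 FPKM in WT and 104 FPKM in STAP-1 KO, 1.20-fold higher (1.13 to 1.27). Slc38a2 (SNAT2), an importer of small neutral amino acids, was at 70.5 FPKM in WT and 70.0 FPKM in STAP-1 KO. Slc38a1 (SNAT1), its close relative 44.5 kb away on chromosome 15, was at 20.4 FPKM in both. With Slc38a5 (SNAT5), at 47.4 FPKM in WT and 35.98 FPKM in STAP-1 KO, these 4 carriers summed to 225 and 231 FPKM, so their summed level as deposited was nearly the same in both libraries.

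Because Slc38a1 (7266 bases) and Slc38a2 (6116 bases) have long transcripts, their level values set them above genes of like length, whose median log2 ratios were -0.93 and -0.71. Their corrected log2 ratios were 0.93 and 0.52, that of Slc1a5 was 0.41 and that of Slc38a5 was -0.69, and the median of the 4 was -0.00 as deposited and 0.47 corrected. Slc1a5 went from 6.70% of all transporter FPKM in WT to 16.6% in STAP-1 KO, and Slc38a2 from 5.44% to 11.2%. By level, Slc1a5 was the fourth transporter gene in WT and the next after Slc3a2 in STAP-1 KO. Slc1a4 (ASCT1), which carries alanine, serine and cysteine, was at 2.94 FPKM in WT and 4.42 FPKM in STAP-1 KO, 1.502-fold higher (1.15 to 1.98). The glutamate carriers of the SLC1 family were scarcely listed, with Slc1a1 at 0.038 and 0.027 FPKM and Slc1a2, Slc1a3, Slc1a6 and Slc1a7 at 0 in both.

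Of the other SLC38 genes, Slc38a7 was at least 2-fold lower in STAP-1 KO on both scales and Slc38a10 only before correction. Slc38a10, of no well-settled function, was at 81.0 FPKM in WT and 37.0 FPKM in STAP-1 KO, 2.19-fold lower (2.06 to 2.33), but its corrected log2 ratio was -0.44, within 2-fold. Slc38a7, which exports glutamine and asparagine from the lysosome, was at 7.03 FPKM in WT and 2.21 FPKM in STAP-1 KO, 3.19-fold lower (2.41 to 4.28), with log2 ratios of -1.63 and, corrected, -1.46. Slc38a9, the lysosomal arginine sensor of mTORC1, was at 3.81 FPKM in WT and 2.25 FPKM in STAP-1 KO. Its transcript has 8910 bases, and its log2 ratio of -0.74 became 0.14 when corrected for length and GC content.

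Over the 6 SLC38 genes with a mean FPKM of 1 or more the median log2 ratio was -0.57, with 2 genes lower (33.3%, against 22.2% of all genes) and 4 within 2-fold. After correction the median was -0.15 and only Slc38a7 was lower. Slc38a6 was at 0.242 FPKM in WT and 0.313 FPKM in STAP-1 KO, and Slc38a3, Slc38a4, Slc38a8 and Slc38a11 were listed at 0 in both.

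Slc36a4 (PAT4), a carrier of proline and tryptophan, had the lowest log2 ratio after Slc7a8. It was at 4.55 FPKM in WT and 0.718 FPKM in STAP-1 KO, 6.34-fold lower (4.58 to 8.78), with log2 ratios of -2.51 and, corrected, -1.84. With 1 FPKM added in place of 0.1 the log2 ratio was -1.69. The gene passed the floor of 1 FPKM only through the WT library. The other SLC36 genes were below the floor in both libraries. Slc36a1 (PAT1), a proton-coupled exporter of the lysosome, was at 0.369 FPKM in WT and 0.509 FPKM in STAP-1 KO, Slc36a2 at 0 and 0.086 FPKM, and Slc36a3 at 0.086 and 0.185 FPKM. Slc36a1 and Slc7a11, with means of 0.439 and 0.468 FPKM, were the genes just outside the floor of 1 FPKM, and Slc7a3 and Slc7a7, with means of 1.35 and 2.22 FPKM, those just inside it.

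In the SLC43 family, Slc43a1 (LAT3) and Slc43a2 (LAT4) move branched-chain and other large neutral amino acids without exchange or a heavy chain. Slc43a1 was at 27.96 FPKM in WT and 27.93 FPKM in STAP-1 KO. Slc43a2 was at 4.81 FPKM in WT and 1.84 FPKM in STAP-1 KO, 2.61-fold lower (2.10 to 3.24), yet its transcript has 7145 bases and its corrected log2 ratio was -0.22. Slc43a3, which transports purine nucleobases, lies 73.0 kb from Slc43a1 on chromosome 2 and was at 48.6 FPKM in WT and 50.3 FPKM in STAP-1 KO. Among carriers of large neutral amino acids, Slc43a1 was thus at about the same level in both libraries and Slc7a5 and Slc7a8 were not.

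Slc7a6os was at 19.9 FPKM in WT and 28.8 FPKM in STAP-1 KO, opposite in direction to Slc7a6, whose annotated end lies 2.01 kb away on the other strand. The annotated genes do not overlap. The library kits do not mark strand, so reads of these genes are told apart by position alone.

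**Figure D3:**
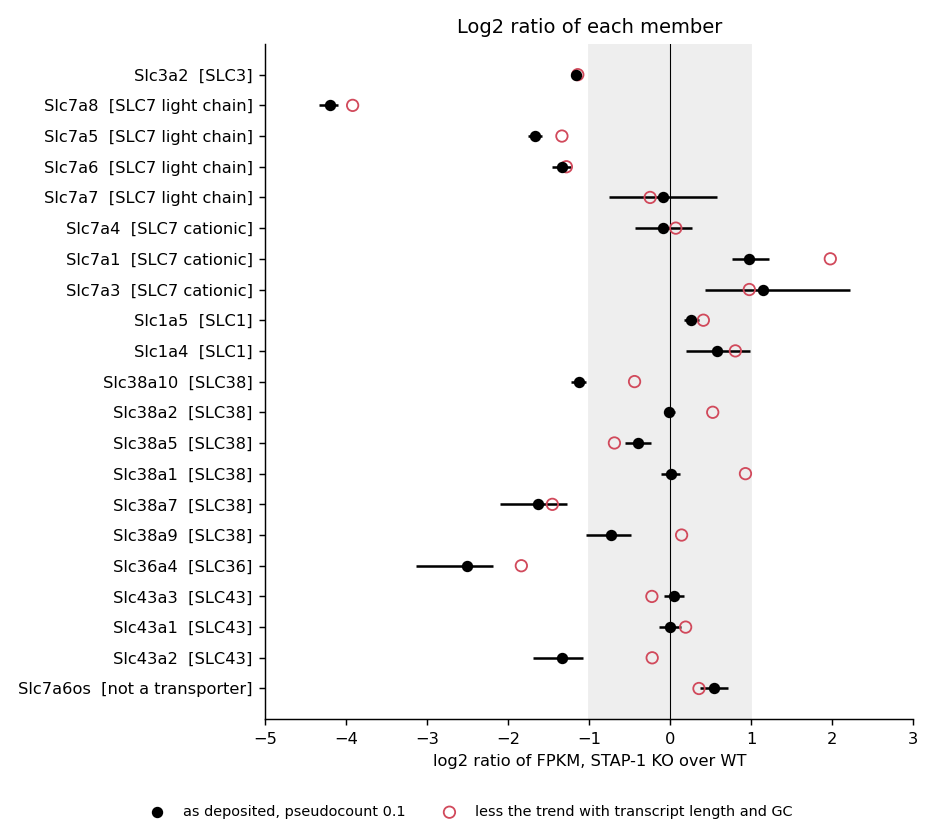
Log2 ratio of FPKM, STAP-1 KO over WT, of the 21 genes with a mean FPKM of 1 or more, as deposited with 0.1 FPKM added (filled points, with 95% counting intervals as bars) and after subtraction of the trend with transcript length and GC content (open points), and the grey band marks 2-fold. Slc7a8, Slc36a4, Slc38a7, Slc7a5, Slc7a6 and Slc3a2 lie below the band on both scales, Slc38a10, Slc43a2 and Slc7a3 enter it after correction, and Slc7a1 leaves it upward (0.97 to 1.98).

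Genes that handle the same amino acids inside the cell were read beside the transporters, from lists chosen by function. Other families of amino acid carriers had 37 genes listed, of which 19 had a mean FPKM of 1 or more, with 3 at least 2-fold higher, 5 lower and a median log2 ratio of -0.69 (-0.23 corrected). Slc6a9 (GlyT1), a glycine importer, was at 25.6 FPKM in WT and 3.30 FPKM in STAP-1 KO. Slc6a6, the taurine carrier, was at 54.4 and 12.1 FPKM, Slc6a19, an importer of neutral amino acids, at 5.62 and 0.257 FPKM, and Pqlc2, a lysosomal exporter of cationic amino acids, at 8.05 and 2.65 FPKM. Slc6a19 passed the floor of 1 FPKM only through the WT library, and the higher gene Slc25a29 (0.684 and 2.34 FPKM) only through STAP-1 KO. The lower share of 26.3% and the higher share of 15.8% stood beside 22.2% and 11.5% of all genes.

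Lysosomal amino acid sensing by mTORC1 had 30 genes with a mean FPKM of 1 or more, 1 of them higher (3.33%, against 11.5% of all genes) and 10 lower (33.3%, against 22.2%), with a median log2 ratio of -0.56 (-0.29 corrected). Of the 10, Depdc5, Gatsl2, Rptor and Sesn2 were within 2-fold after correction, at -0.46, -0.87, -0.43 and -0.64, and Rragc, at -0.93 as deposited, was past it at -1.16, where 17.8% of all genes were lower. The higher gene, Rragb, was within 2-fold after correction (0.95). These 6 were picked out after their values were seen. The 4 with the widest differences have transcripts of 6255 to 8564 bases and stayed past 2-fold after correction, with log2 ratios of -2.56 for Fnip1, -2.76 for Fnip2, -1.48 for Tsc2 and -1.21 for Mtor. Fnip1 and Fnip2, partners of folliculin, were at 13.3 and 4.94 FPKM in WT and at 1.64 and 0.291 FPKM in STAP-1 KO. Tsc2, which restrains mTORC1, was at 31.0 and 5.85 FPKM, and the kinase gene Mtor at 5.44 and 0.968 FPKM. Fnip2, Mtor, Gatsl2 (2.79 and 0.632 FPKM) and Wdr59 (3.10 and 0.994 FPKM) are among the 10 lower genes. They passed the floor of 1 FPKM only through the WT library.

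The amino acid starvation response, which ATF4 directs, had genes past 2-fold in both directions. Of 23 genes with a mean FPKM of 1 or more, 5 were higher and 5 lower (21.7% each, against 11.5% higher and 22.2% lower over all genes), with a median log2 ratio of 0.34. Phgdh, the first enzyme of serine synthesis, was at 37.6 FPKM in WT and 124 FPKM in STAP-1 KO, and Gpt2, which makes alanine, at 1.57 and 6.12 FPKM. Ddit4, an inhibitor of mTORC1, was at 10.8 and 2.91 FPKM, and Ppp1r15a, which returns translation after stress, at 417 and 148 FPKM. After correction the lower genes Eif2ak4 (-0.49) and Sesn2 (-0.64) were within 2-fold. Atf3 and Ddit3, at -0.96 and -0.70 as deposited, were past it, both at -1.28. Pycr1, a higher gene at 0.887 and 2.51 FPKM, passed the floor only through STAP-1 KO. These genes were picked out after their values were seen.

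Arginine use (11 genes with a mean FPKM of 1 or more) had 2 higher (18.2%, against 11.5% of all genes) and 1 lower gene (9.09%, against 22.2%) and a median log2 ratio of 0.23. Gatm, the first enzyme of creatine synthesis, was at 21.4 FPKM in WT and 65.7 FPKM in STAP-1 KO, and the polyamine genes Srm and Odc1 at 219 and 472 FPKM and at 38.8 and 77.4 FPKM. Glutamine use (15 genes) had 2 higher (13.3%) and 3 lower genes (20%), near the shares of all genes, and a median of 0.21. Its lower genes were Cad, which starts pyrimidine synthesis, at 38.2 and 9.13 FPKM, Gfpt1, which starts hexosamine synthesis, at 19.1 and 5.33 FPKM, and Glul (glutamine synthetase) at 29.8 and 11.1 FPKM. The higher genes were Gpt2, given above, and Ctps, at 27.5 and 62.1 FPKM. Cad, with a transcript of 7137 bases, and Ctps were within 2-fold after correction (-0.79 and 0.96). Pfas, at 0.31 as deposited, was past it at 1.22.

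Branched-chain amino acid use was the one list of the 7 in which every gene with a mean FPKM of 1 or more (8 of 9) had a log2 ratio above 0. Over all 10974 genes with that mean, 5302 were above 0. Of the 8, 7 were within 2-fold, none was lower (against 22.2% of all genes), and the median was 0.53. The other gene of the 9, Ppm1k, was below the floor at 1.32 FPKM in WT and 0.428 FPKM in STAP-1 KO, with a log2 ratio of -1.43. After correction Bckdhb was at -0.09 and Dbt at -0.02, so this did not hold on that scale. Bcat1, the cytosolic transaminase of leucine, isoleucine and valine, was at 0.925 FPKM in WT and 5.20 FPKM in STAP-1 KO, so it passed the floor only through STAP-1 KO, and as the 1 higher gene it makes 12.5% of the list, near the 11.5% of all genes. Bckdha was at 15.4 and 27.5 FPKM, Dld at 79.4 and 134 FPKM and Ivd at 20.5 and 31.0 FPKM. Genes of glutathione synthesis from cystine (12 genes) had none higher and 2 lower (16.7%, against 22.2% of all genes), Hmox1 at 30.1 and 8.80 FPKM and Cth at 2.34 and 1.08 FPKM, with a median of -0.01. Ggt1, at 1.54 and 0.843 FPKM, and Gsr, at 65.1 and 97.5 FPKM, were within 2-fold.

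**Figure D4:**
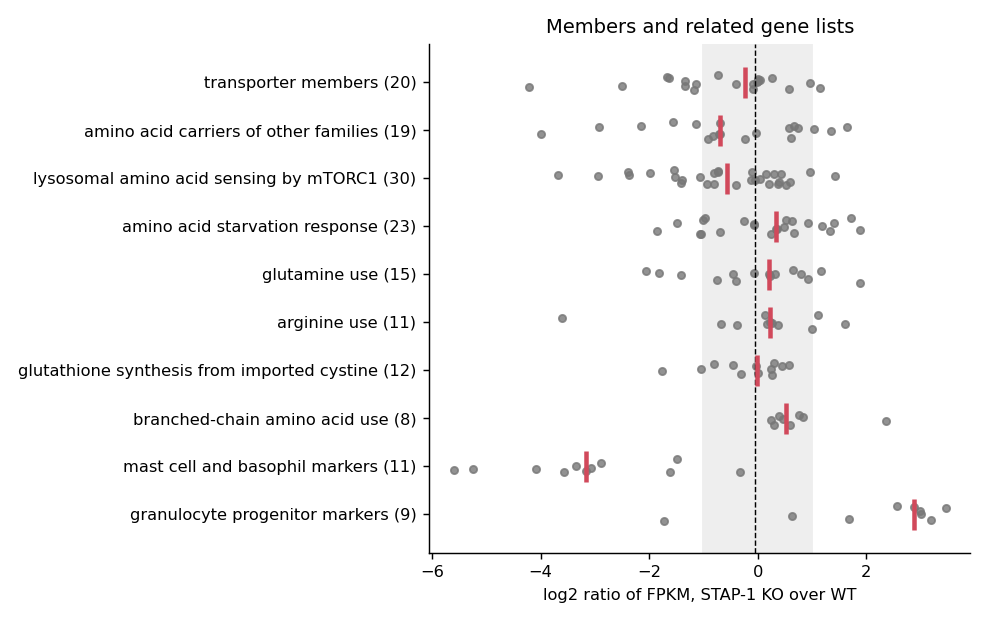
Log2 ratio of FPKM, STAP-1 KO over WT, for each gene (points) with a mean FPKM of 1 or more in the transporter genes without Slc7a6os, in 7 lists of related function and in 2 lists of cell type markers, with red lines for list medians, a dashed line for the median of all genes (-0.04) and a grey band for 2-fold, 1 library per genotype. Mast cell and basophil markers lie to the left (median -3.17) and granulocyte progenitor markers to the right (median 2.87), and the functional lists spread to both sides except branched-chain amino acid use.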

How the data were processed

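Expression was measured by RNA-seq in 1 WT and 1 STAP-1 KO library of sorted LSCs. Per the methods, cDNA was made with SMART-Seq v4 and Nextera XT and read in 75-base single-end mode. The submitters' processing notes name mm10, TopHat2 2.0.13, Bowtie2 2.2.3 and SAMtools 0.1.19, and the methods name another SAMtools version. The authors deposited FPKM per gene symbol, computed with the Cufflinks 2.2.1 package. The annotation, the library scaling and the read totals are not given in the sources used here. SMART-Seq and Nextera libraries carry no strand and are amplified, so intervals that treat reads as independent are too narrow and cover counting error at most.

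From these values log2 ratios with 0.1 FPKM added were computed for genes with a mean FPKM of 1 or more, and genes past 2-fold, the cut-off the study used, were counted. With 1 library per genotype no test was run. Reads were estimated from the FPKM, the longest GENCODE transcript of each gene less 208 bases, and a depth at which 47.2% of 322 values under 0.3 FPKM of single-transcript genes for WT and 48.6% of 397 for STAP-1 KO fell within 0.01 of a whole read, so whole reads were not recovered and no count model was used. Intervals are exact binomial (Clopper-Pearson, 95%). The corrected log2 ratio subtracts running medians over transcript length, then GC content, in 20 bins each. Of 23284 symbols, 20911 matched the annotation as written and 1915 through older names, including all 43 members. Python 3.11.15, numpy 2.4.6, pandas 2.3.3, scipy 1.17.1 and matplotlib 3.10.9 were used, and the scripts were tested on simulated data.

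Members were every gene the symbol rule matches, each one with a mean FPKM of 1 or more was named, and lists are described by counts, medians and up to 4 genes with the largest log2 ratios at 1 FPKM added, except for a few listed genes that are not reported here. Further list genes are named where the floor, the correction or the direction of a call is described, and were picked after their values were seen. The members and lists were chosen with earlier results of these data known. Alternatives changed the added value, the filter, the scaling, the fold cut-off, the length and GC correction and the inclusion of Slc7a6os.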

Additional observations from a re-analysis of the deposited data

How the results depend on the processing

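Counts of higher genes were the least stable value. Instead of 1, there were 0 genes higher with 1 FPKM added (9.43% of all genes), at a mean of at least 5 FPKM (10.8%) and at a 4-fold cut-off (2.07%), and 2 (Slc7a1 and Slc7a3) with the median of all genes set to 0 (12.6%), with upper quartiles made equal (13.02%) and at a 1.5-fold cut-off (25.3%). After the length and GC correction it was 1 gene, Slc7a1 in place of Slc7a3. Instead of 8, there were 5 genes lower at a mean of at least 5 FPKM (18.7% of all genes), 2 (Slc7a8 and Slc36a4) at 4-fold (8.46% of all genes, near the share of the 21) and 9 (with Slc38a9) at 1.5-fold (32.3%). The correction left 6 lower, without Slc38a10 and Slc43a2, beside 17.8% of all genes. The light-chain median of -1.51 was -1.67 at a mean of at least 5 FPKM, -1.34 with 0.1 FPKM or more required in each library, -1.34 with no filter, and -1.31 corrected. The SLC38 median of -0.57 was -0.20, -0.40, -0.40 and -0.15 under the same 4 settings. Slc3a2 was at -1.11 with upper quartiles made equal, Slc7a5 at -1.34 corrected, and the Slc7a5 to Slc3a2 difference of -0.50 at -0.20 corrected. No value with a difference past 2-fold changed sign. No paired analysis was possible because there is 1 library per genotype, and for the same reason no replicate could be left out. Depth limits Slc7a3, Slc7a7 and the genes under 1 FPKM most.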
